A study of Mus musculus with 9 samples.

Results

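The genes described here are 9 members of the NF-kB pathway in mouse cortical neuron cultures, out of 54232 genes counted. They are the subunit genes Nfkb1, Nfkb2, Rela and Relb, the inhibitor genes Nfkbia, Nfkbie and Tnfaip3, and the chemokine genes Ccl5 and Ccl2. Membership was set by name, with earlier results of these libraries already known, so the differences between groups in these 9 genes are given as descriptions and carry no test. RNA was sequenced from 9 libraries of cortical neurons of wild-type CD1 mice, an outbred stock, with 3 libraries in each of 3 groups. The control libraries carry the name PDL. The PA libraries carry the name IKVAV, a cell-binding stretch of laminin, and PA is a peptide amphiphile, a peptide with a fatty tail that assembles into fibres. The PA + PS2 libraries carry the name IKVAV plus PEDOT-S-OH, after a family of conducting polymers. The treatment label reads peptide amphiphile in the control libraries too, so the groups follow the sample titles. Culture age, exposure time and amounts were not given in the sources used here, nor whether the repeats were separate cultures. A p-value below therefore takes its error from library-to-library spread alone, and that spread may be technical.

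NF-kB is a family of paired transcription factors built from the subunits that these genes encode. In a resting cell, inhibitor proteins such as those from Nfkbia and Nfkbie hold the pairs in the cytoplasm, and signals from cytokine receptors lead to the breakdown of the inhibitors and let the pairs enter the nucleus. The canonical arm works mainly through the products of Rela and Nfkb1, and the non-canonical arm through those of Relb and Nfkb2. Several members are themselves known targets of the pathway, among them Nfkbia, Tnfaip3, Nfkb2, Relb and both chemokine genes. In the brain the pathway is known from inflammatory signalling in glia and from synaptic signalling in neurons. Transcript counts do not report where the proteins are or whether they are active.

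The stretches of DNA just before the start sites are shown because the kappaB motif, the 10-base sequence that NF-kB pairs bind, is part of how several members are regulated. The RefSeq promoter table (build GRCm38.p6) held windows for 5 members, namely Nfkb2, Rela, Nfkbia, Nfkbie and Tnfaip3. The 250 bases before each listed start were searched on both strands for the kappaB consensus, and the 150 bases nearest to the start are printed 5′ to 3′ on the strand of the gene. Matches to the consensus are in capitals.
Nfkb2, chr19:46304587-46304736, + strand: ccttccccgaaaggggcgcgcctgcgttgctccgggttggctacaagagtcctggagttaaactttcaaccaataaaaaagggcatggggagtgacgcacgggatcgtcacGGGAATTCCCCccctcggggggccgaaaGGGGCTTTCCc
Tnfaip3, chr10:19015411-19015560, - strand: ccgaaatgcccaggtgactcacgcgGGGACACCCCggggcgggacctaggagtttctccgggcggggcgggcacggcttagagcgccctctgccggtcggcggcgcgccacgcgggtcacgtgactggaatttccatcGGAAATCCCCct
Nfkbia, chr12:55492648-55492797, - strand: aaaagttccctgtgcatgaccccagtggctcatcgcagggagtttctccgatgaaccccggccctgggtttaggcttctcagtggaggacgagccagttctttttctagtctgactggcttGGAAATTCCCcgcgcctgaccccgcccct
Nfkbie, chr17:45555550-45555699, + strand: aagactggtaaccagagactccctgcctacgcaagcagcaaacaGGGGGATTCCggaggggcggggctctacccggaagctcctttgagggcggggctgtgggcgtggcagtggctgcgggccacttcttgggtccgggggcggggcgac
Rela, chr19:5637391-5637540, + strand: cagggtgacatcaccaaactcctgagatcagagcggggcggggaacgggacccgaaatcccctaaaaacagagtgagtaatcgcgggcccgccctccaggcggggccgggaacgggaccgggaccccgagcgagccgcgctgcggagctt

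The window of Nfkb2 held overlapping matches from 39 to 29 bases before the start, with GGGAATTCCC read the same on both strands, and another, GGGGCTTTCC, from 11 to 2 bases before it. In Tnfaip3 the matches lay 125 to 116 and 12 to 3 bases before the start. Nfkbia had a match 29 to 20 bases before its start, on the opposite strand as GGGAATTTCC, and Nfkbie had one 106 to 97 bases before its start. The Rela window held none. Across the table, 3.90% of 32851 windows of the same length held a match. Among the windows of the members, 6 of 8 held one, counting further start sites of Nfkb2 and Tnfaip3. A match describes the letters only, and no binding was measured in these libraries.

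Total counts ran from 20746851 to 27237398 per library, and levels are given as CPM, counts scaled to a common library size. Reads of mitochondrial genes made up 0.342% to 1.39% of a library. All 14 markers of neurons passed the filter on low counts and were tested, and they summed to 7184 to 8630 CPM in a library. Markers of astrocytes (10 of 12 tested), oligodendrocyte lineage (10 of 10), microglia and macrophages (15 of 20) and fibroblasts, pericytes and meninges (12 of 14) were counted too, so RNA typical of other cells was present beside that of neurons. Of 8 markers of T and NK cells only Lck was tested. Control repeat 1 stood apart in the count of genes that passed: without it, 175 genes passed in PA + PS2 against control, where 7 passed with it.

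Of the 9 members, 8 passed the filter on low counts, and Ccl2 did not. Rela and Nfkbia were the most abundant members when levels were set per kilobase of exon, so that genes could be compared. Rela stood at 10.8 ± 1.33 and Nfkbia at 8.54 ± 0.772 CPM per kilobase (mean ± SD over the 9 libraries), and their ranges overlapped. Nfkb1 followed at 1.13 ± 0.104, with a range wholly below that of Nfkbia. Below it came Nfkbie at 1.10 ± 0.151, Relb at 0.828 ± 0.198, Ccl5 at 0.495 ± 0.285, Tnfaip3 at 0.405 ± 0.0861, Nfkb2 at 0.400 ± 0.174 and Ccl2 at 0.105 ± 0.0902 CPM per kilobase. Each neighbouring pair from Nfkb1 downward overlapped in range, so neighbours in this part of the order are not separated beyond the spread. Members further apart can be, as Nfkb1 was at least 0.947 and Ccl5 at most 0.796 CPM per kilobase. The exon length used for Nfkb1, 12061 bases, is the union of all annotated exons and is long, which lowers its value per kilobase.

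**Figure D1:**
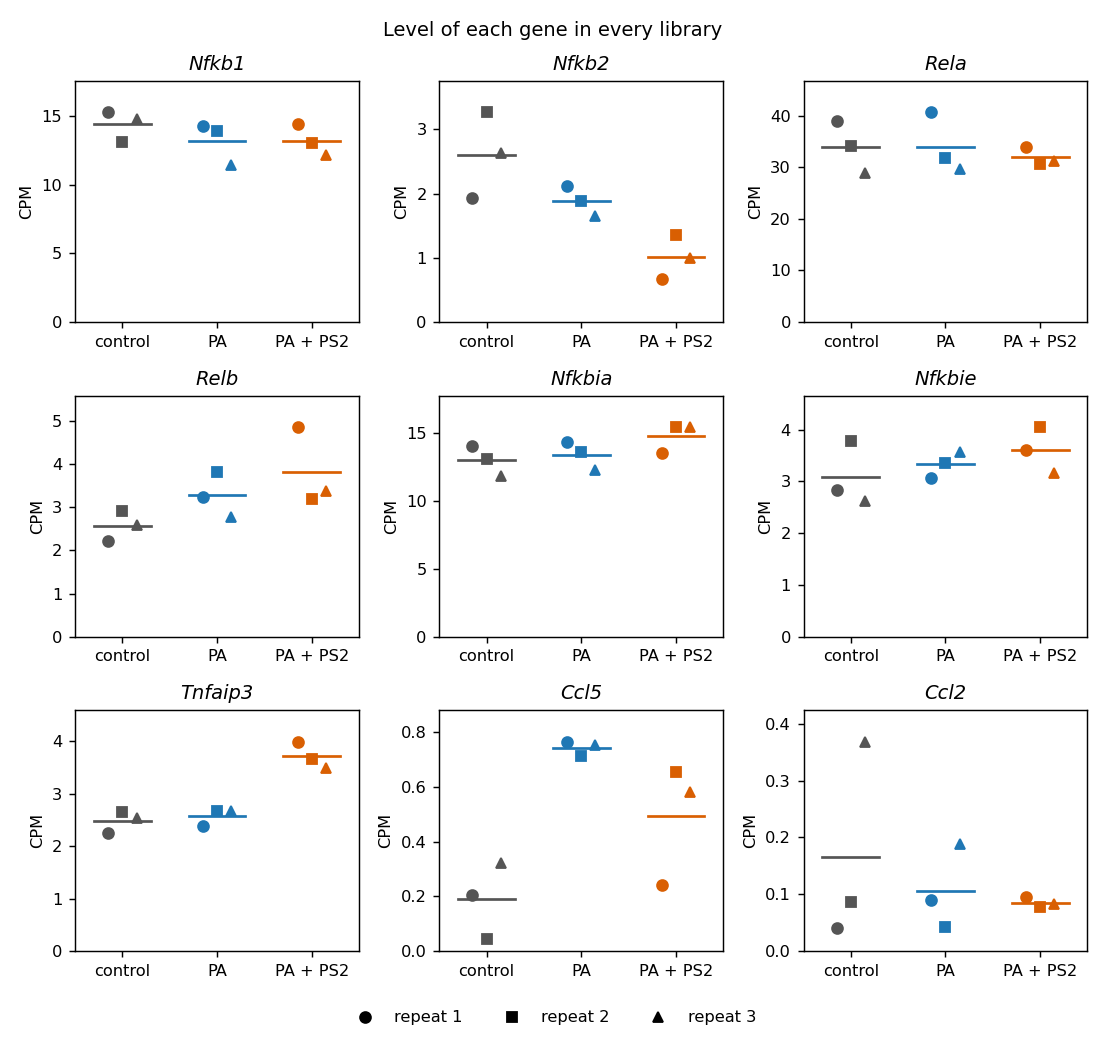
Level in CPM (vertical axis, from 0) of the 9 members in control, PA and PA + PS2. Each point is 1 library, its shape gives the repeat, and the horizontal line is the mean of 3 libraries. Nfkb2 lay lower and Tnfaip3 higher in the 3 PA + PS2 libraries than in any other library, while Ccl5 was between 0.712 and 0.765 CPM in the PA libraries and at most 0.322 CPM in the controls.

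The subunit genes of the canonical arm were nearly level across the groups. Rela (ENSMUSG00000024927, mm10 chromosome 19, 5637483 to 5648130), which encodes the main activating subunit p65, stood at 38.9, 34.2 and 28.8 CPM in control repeats 1, 2 and 3. It stood at 40.6, 31.7 and 29.6 CPM in PA and at 33.9, 30.7 and 31.2 CPM in PA + PS2. The 3 groups overlapped, and the values were highest in repeat 1 of each group. The log2 fold change of Rela was -0.00084 ± 0.14 in PA against control and -0.09 ± 0.14 in PA + PS2 against control (± standard error throughout for fold changes). Nfkb1 (ENSMUSG00000028163, chromosome 3, 135584655 to 135691547) encodes the precursor p105, from which the subunit p50 is made. Its levels were 15.2, 13.1 and 14.8 CPM in the controls, 14.3, 13.9 and 11.4 CPM in PA and 14.4, 13.0 and 12.2 CPM in PA + PS2. These also overlapped, with log2 fold changes of -0.13 ± 0.14 in both PA and PA + PS2 against control.

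The subunit genes of the non-canonical arm stood in opposite directions in PA + PS2. Nfkb2 (ENSMUSG00000025225, chromosome 19, 46304320 to 46312385) encodes p100, a precursor that both holds back RelB and yields the subunit p52. It stood at 1.93, 3.26 and 2.62 CPM in control repeats 1, 2 and 3, from 47, 75 and 57 reads. In PA it stood at 2.11, 1.88 and 1.65 CPM, and in PA + PS2 at 0.673, 1.35 and 0.998 CPM, from 14, 35 and 24 reads. Each PA + PS2 library lay below every control and every PA library, while PA and control overlapped. The log2 fold change of Nfkb2 was -1.35 ± 0.32 in PA + PS2 against control, a level 0.391 times that of control, -0.89 ± 0.33 in PA + PS2 against PA, and -0.47 ± 0.31 in PA against control. It ran from -1.62 to -1.13 in PA + PS2 against control when single libraries were left out. Without repeat 1 of every group, it was -1.32 in that comparison, -0.58 in PA + PS2 against PA and -0.73 in PA against control.

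Exons of Nfkb2 share 299 bases with Psd, a gene on the opposite strand that stood at a mean of 343 CPM in control, 360 CPM in PA and 356 CPM in PA + PS2. Whether the counting used strand is not given in the sources used here, so reads from the shared stretch cannot be assigned to either gene. The log2 fold change of Psd was 0.05 ± 0.14 in PA + PS2 against control.

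Relb (ENSMUSG00000002983, chromosome 7, 19606217 to 19629438), which encodes the partner of p52, was higher in PA + PS2 than in control. Its levels were 2.22, 2.91 and 2.58 CPM in the controls, 3.24, 3.81 and 2.78 CPM in PA and 4.86, 3.20 and 3.37 CPM in PA + PS2. All 3 PA + PS2 libraries lay above the 3 controls, PA overlapped with both, and repeat 1 was the highest of the PA + PS2 libraries. The log2 fold change of Relb was 0.56 ± 0.24 in PA + PS2 against control and 0.35 ± 0.25 in PA against control. In PA + PS2 against PA it was 0.21 ± 0.24. Without repeat 1 of every group, these 3 values were 0.26, 0.26 and -0.0016, so PA and PA + PS2 then stood equally above control.

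Because both genes are counted in the same library, the ratio of Nfkb2 to Relb does not depend on the scaling of library sizes; the pair was chosen after the values were seen. The log2 of the CPM ratio was -0.20, 0.16 and 0.03 in the controls, -0.62, -1.02 and -0.75 in PA and -2.85, -1.25 and -1.75 in PA + PS2. The 3 groups did not overlap on this scale, but the read counts of Nfkb2 behind it are low. PA repeat 2 (-1.02) and PA + PS2 repeat 2 (-1.25) lay close and rest on 45 and 35 reads of Nfkb2. The lowest value, in PA + PS2 repeat 1, rests on 14. Per kilobase, Nfkb2 stood at 0.568 ± 0.145 and Relb at 0.661 ± 0.0894 in control, against 0.220 ± 0.0737 and 0.980 ± 0.235 in PA + PS2 (mean ± SD, n = 3). These 2 levels overlapped within their SD in control and were apart in PA + PS2.

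**Figure D2:**
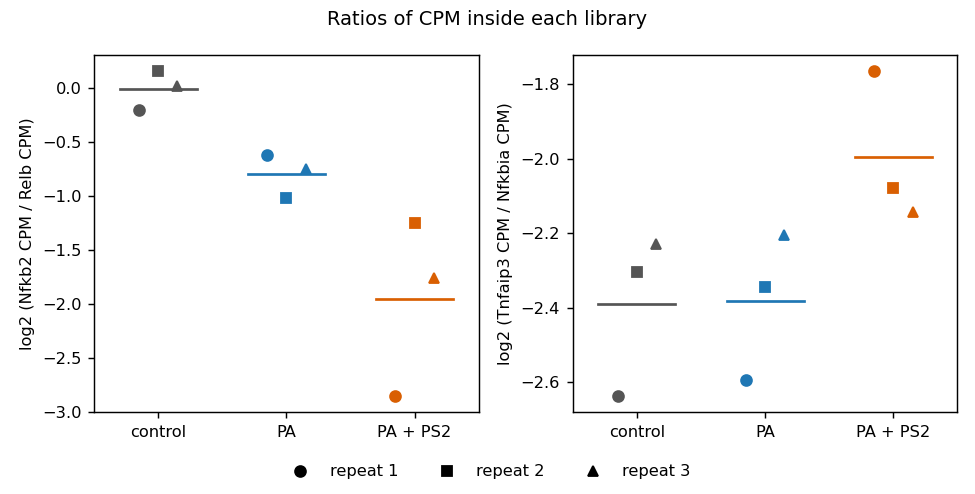
Log2 ratio of the CPM of Nfkb2 to Relb (left) and of Tnfaip3 to Nfkbia (right) inside each library (points, shape by repeat), with the group mean as a line. The Nfkb2 to Relb ratio averaged -0.00401 in control, -0.79 in PA and -1.95 in PA + PS2.

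Among the inhibitor genes, Tnfaip3 differed most between PA + PS2 and the other groups. Tnfaip3 (ENSMUSG00000019850, chromosome 10, 19000910 to 19015657) encodes A20, a ubiquitin-editing enzyme that damps signalling from cytokine receptors. Control repeats 1, 2 and 3 stood at 2.26, 2.65 and 2.53 CPM, those of PA at 2.38, 2.68 and 2.67 CPM and those of PA + PS2 at 3.99, 3.66 and 3.49 CPM. The PA + PS2 libraries all lay above the 6 others, and PA and control overlapped. The log2 fold change of Tnfaip3 was 0.58 ± 0.20 in PA + PS2 against control, a level 1.5 times that of control, 0.53 ± 0.20 against PA, and 0.06 ± 0.21 in PA against control. With single libraries left out, PA + PS2 against control ran from 0.52 to 0.64. Without repeat 1 of every group, PA + PS2 stood at 0.47 against control and 0.42 against PA.

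Nfkbia (ENSMUSG00000021025, chromosome 12, 55489410 to 55492647) encodes IkB-alpha, the inhibitor that is broken down and made again within a cycle of canonical signalling. Its levels were 14.1, 13.1 and 11.9 CPM in the controls, 14.4, 13.6 and 12.3 CPM in PA and 13.6, 15.5 and 15.4 CPM in PA + PS2, and the groups overlapped. Its log2 fold change was 0.19 ± 0.13 in PA + PS2 against control and 0.05 ± 0.13 in PA against control. The log2 ratio of Tnfaip3 to Nfkbia, a pair also chosen after the values were seen, was -2.39 ± 0.217 in control, -2.38 ± 0.198 in PA and -2.0 ± 0.202 in PA + PS2 (mean ± SD, n = 3). Nfkbie (ENSMUSG00000023947, chromosome 17, 45555703 to 45563169), which encodes IkB-epsilon, stood at 2.83, 3.78 and 2.62 CPM in the controls, 3.06, 3.35 and 3.57 CPM in PA and 3.61, 4.05 and 3.16 CPM in PA + PS2. Its groups overlapped too, with a log2 fold change of 0.23 ± 0.22 in PA + PS2 against control and 0.11 ± 0.22 in PA against control.

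The chemokine genes were the least abundant members by counts. Ccl5 (ENSMUSG00000035042, chromosome 11, 83525778 to 83530518) encodes RANTES, which attracts T cells and monocytes. It had 5, 1 and 7 reads in control repeats 1, 2 and 3, 17, 17 and 20 in PA, and 5, 17 and 14 in PA + PS2. In CPM these were 0.205, 0.0435 and 0.322 in the controls, 0.765, 0.712 and 0.752 in PA and 0.240, 0.655 and 0.582 in PA + PS2. The PA libraries lay above every control and every PA + PS2 library, and PA + PS2 repeat 1 lay among the controls. Summed over a group there were 13 reads in control (95% Poisson interval 6.92 to 22.2), 54 in PA (40.6 to 70.5) and 36 in PA + PS2 (25.2 to 49.8), intervals that cover counting error only. The log2 fold change of Ccl5 was 1.94 ± 0.59 in PA against control and 1.38 ± 0.61 in PA + PS2 against control, 2 values that share the control libraries. The first was 1.48 without control repeat 2, the library with 1 read, and 2.51 without control repeat 3. The second was 0.92 and 1.94 without those libraries, and 0.67 without repeat 2 of every group.

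Ccl2 (ENSMUSG00000035385, chromosome 11, 82035571 to 82037453) encodes MCP-1, an attractant of monocytes. It had 1, 2 and 8 reads in the controls, 2, 1 and 5 in PA and 2 in each PA + PS2 library. The sums were 11 reads in control (interval 5.49 to 19.7), 8 in PA (3.45 to 15.8) and 6 in PA + PS2 (2.20 to 13.1). These intervals overlap, but they cover counting error only and are not a test. Ccl2 did not pass the count filter, so no fold change is given and no difference is read at this depth.

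**Figure D3:**
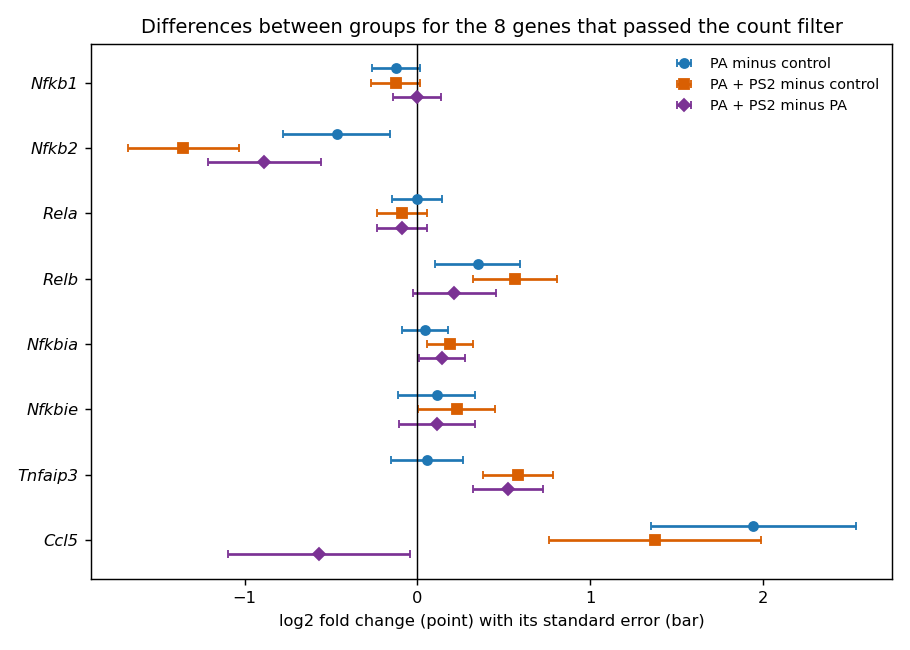
Log2 fold change (horizontal axis, points) with its standard error (bars) for the 8 members that passed the count filter, in the 3 comparisons. Nfkb2 at -1.35 lies on the negative side in PA + PS2 minus control, Relb at 0.56 and Tnfaip3 at 0.58 on the positive side, and Rela, Nfkb1, Nfkbia and Nfkbie near 0.

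Counted over the members, 0 of 8 passed the edgeR quasi-likelihood test at an adjusted p under 0.05 in each comparison. The share of all 15712 tested genes that passed was 0% in PA against control, 0.0446% in PA + PS2 against control and 0% in PA + PS2 against PA. At an unadjusted p under 0.05 there were 1 of 8 (Ccl5), 4 of 8 (Nfkb2, Relb, Tnfaip3 and Ccl5) and 2 of 8 (Nfkb2 and Tnfaip3), where all genes gave 1.22%, 5.63% and 5.61%. DESeq2 passed 0, 1 (Nfkb2) and 0 members, with 0%, 1.48% and 0.866% of all genes. With the repeat number as a block 0 members passed, with 0%, 1.17% and 0.363% of all genes. Groups did not overlap for 1 of the 8 members in PA against control (Ccl5, higher), where 4.04% of all tested genes did not (1.97% higher and 2.07% lower). In PA + PS2 against control these were 3 of 8 (Relb and Tnfaip3 higher, Nfkb2 lower), against 11.9% of all genes (5.38% higher and 6.54% lower). In PA + PS2 against PA they were 3 of 8 (Tnfaip3 higher, Nfkb2 and Ccl5 lower), against 9.64% (3.32% higher and 6.32% lower). Since the members were picked with these differences in view, nothing is read from these counts. The median log2 fold change of the 8 members was 0.05, 0.21 and 0.06, and that of all tested genes was -0.0084, -0.00073 and 0.0055.

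For each member with a mean of at least 1 CPM, the 3 protein-coding genes with the most similar pattern over the 9 libraries were taken from 12264 genes by Pearson's r of log2(CPM + 0.5). The libraries share groups and repeats, and the highest of many values of r is high by selection, so these are descriptions with no test. Nfkb2 was most like Ctnna1 (r = 0.961), which encodes the adhesion protein alpha-catenin, then Nek2 (0.958), a mitotic kinase gene, and Numb (0.958), a gene of cell fate. Tnfaip3 was most like Fuca2 (0.945), Iars (0.937), which encodes an aminoacyl-tRNA synthetase, and Slc22a15 (0.908). Relb was most like Map7 (0.919), D230025D16Rik (0.860) and Tmem218 (0.851). For Rela these were Zdhhc8 (0.984), Ampd2 (0.982) and Cbarp (0.977). Nfkb1 had Fbxo38 (0.898), Gadd45b (0.889) and Trappc6a (0.886), Nfkbia had Cnih3 (0.935), Psmc1 (0.928) and Fam220a (0.925), and Nfkbie had Slc39a5 (0.900), Tcirg1 (0.889) and Nxpe3 (0.882). No member was among the most similar genes of another.

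The rest of the pathway was followed in 9 lists that together held 167 further genes, of which 92 were tested. In edgeR 0 of the 92 passed in each comparison. At an unadjusted p under 0.05 there were 1 in PA against control, 10 in PA + PS2 against control (3 higher and 7 lower) and 7 in PA + PS2 against PA (1 higher and 6 lower), where all tested genes gave 1.22%, 5.63% and 5.61%. Csf1 was the only one of them that passed with the repeat block (PA + PS2 against control) or with DESeq2 (PA + PS2 against control and against PA). Of all tested genes, 1.17% passed with the block in PA + PS2 against control. With DESeq2, 1.48% passed in that comparison and 0.866% in PA + PS2 against PA. A count of 1 in 92 is near these shares, so nothing is read from it about the lists.

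Genes known as NF-kB targets were the pathway list with the lowest median of fitted values in PA + PS2, but single libraries did not all show it. Of 15 tested genes (of 30), 11 stood below 0 against control, with a median log2 fold change of -0.43, where all genes had -0.00073, and 0 passed over all genes in edgeR. The median of log2(CPM + 0.5) over the control mean was -0.02, -0.41 and -0.03 in PA + PS2 repeats 1, 2 and 3, against 0.13, -0.12 and 0.11 in the controls, so on this scale repeat 2 alone lay well below them. The summed level of the list was 282 to 315 CPM in PA + PS2 and 272 to 318 CPM in control. Csf1, the growth factor on which microglia depend, stood at 8.96, 11.8 and 20.5 CPM in the controls, 10.3, 10.1 and 6.43 CPM in PA and 3.70, 4.32 and 2.7 CPM in PA + PS2. The PA + PS2 libraries lay below all others. Its log2 fold change in PA + PS2 against control was -1.94 ± 0.32 (edgeR adjusted p = 0.054; 0.019 with the repeat block). Over its 17 alternatives the adjusted p of Csf1 ran from 2.2e-15 (without the count filter) to 0.61 (without repeat 3 of every group), and 7 of them were under 0.05. Without the filter 365 genes passed in this comparison, where 7 passed in the main fit, so the lowest value is not comparable with the others. Vcam1, an adhesion molecule of vessels and glia, stood at -1.28 ± 0.47 in PA + PS2 against PA (edgeR adjusted p = 0.61), and Icam1, another adhesion molecule, at -1.03 ± 0.49 (0.94). Saa3, an acute-phase protein gene, had values in the other direction, at 2.08 ± 0.62 in PA + PS2 against control (edgeR adjusted p = 0.32), with a mean of 0.689 CPM against 0.160 CPM.

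Receptors upstream of the pathway had a median near 0 (-0.07 in PA + PS2 against control, 12 of 20 tested), with 0 passing in edgeR. Tnfrsf12a, the receptor of the cytokine TWEAK, was counted at 3.20, 3.35 and 3.50 CPM in control repeats and at 2.12, 1.62 and 1.46 CPM in those of PA + PS2. Its log2 fold change was -0.96 ± 0.29 (edgeR adjusted p = 0.32). Il1r1, the receptor of interleukin 1, stood at -2.16 ± 0.66 (0.33), with means of 0.710 CPM in control and 0.15 CPM in PA + PS2 and overlapping groups. The value of Il1r1 was -2.91 without PA + PS2 repeat 2 and -1.47 without repeat 3 of every group. Ltbr, the lymphotoxin receptor that feeds the non-canonical arm, stood at -0.81 ± 0.35 (edgeR adjusted p = 0.81). Tnfrsf1b, a receptor of tumour necrosis factor, stood at 0.67 ± 0.38 (edgeR adjusted p = 1). Of 12 ligand genes only Il18 and Hmgb1 passed the count filter, at -0.40 ± 0.31 in PA against control and -0.06 ± 0.25 in PA + PS2 against control (edgeR adjusted p = 1 for both).

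**Figure D4:**
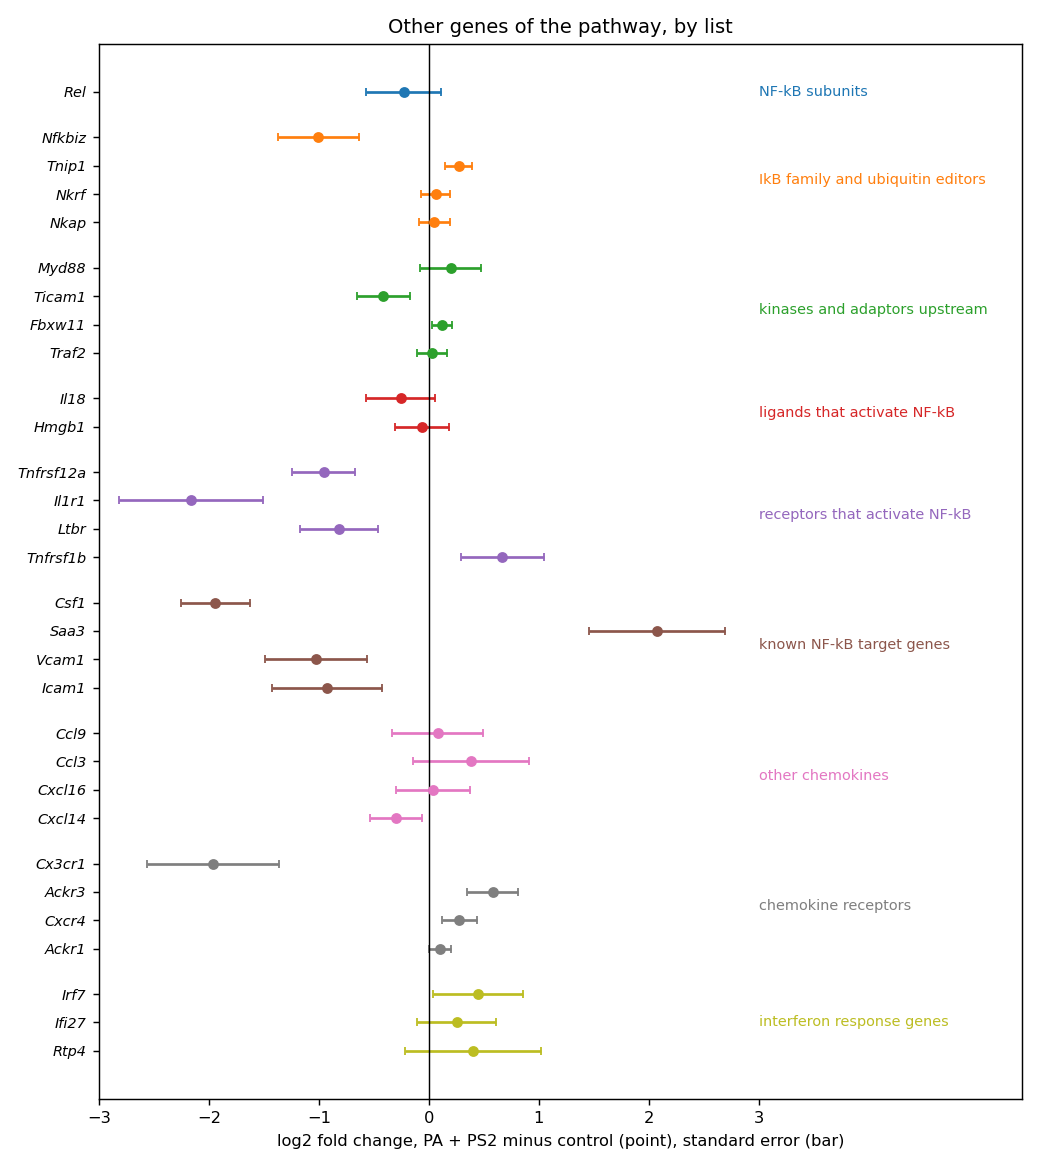
Log2 fold change in PA + PS2 minus control (points) with its standard error (bars) for the named genes of the 9 pathway lists, grouped by list. Csf1 at -1.94, Il1r1 at -2.16, Cx3cr1 at -1.96 and Saa3 at 2.08 lie farthest from 0, and adaptors and interferon response genes lie closer to it.

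Kinases and adaptors between receptors and NF-kB had a median log2 fold change of 0.0013 in PA + PS2 against control, and 0 of 27 tested genes passed in edgeR. Myd88, the adaptor of Toll-like and interleukin 1 receptors, stood at 0.66 ± 0.28 in PA + PS2 against PA (edgeR adjusted p = 0.80), and Ticam1, an adaptor of Toll-like receptors, at -0.55 ± 0.24 (0.82). Fbxw11 stood at 0.14 ± 0.09 in the same comparison and Traf2 at 0.16 ± 0.14 in PA against control (edgeR adjusted p = 1 for both). Of the IkB family and ubiquitin editors, which include the 3 member inhibitors, 13 of 14 were tested and 0 passed in edgeR. Nfkbiz, a nuclear IkB protein induced by Toll-like signals, stood at 1.89, 3.43 and 1.39 CPM in PA and 0.818, 1.12 and 0.956 CPM in PA + PS2. Its log2 fold change in that comparison was -1.20 ± 0.36 (edgeR adjusted p = 0.45). Tnip1, which encodes a partner of A20, stood at 0.27 ± 0.12 in PA + PS2 against control (edgeR adjusted p = 0.86). Nkrf and Nkap stood at 0.16 ± 0.13 and 0.15 ± 0.14 in PA + PS2 against PA, and Rel, the remaining subunit gene, at -0.23 ± 0.34 against control (edgeR adjusted p = 1 for all 3).

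Other chemokine genes and the genes that answer interferon had medians near 0 against control, though single genes varied and many were not tested. Of 26 other chemokine genes 10 were tested, with a median of 0.01 in PA against control and 0.05 in PA + PS2 against control, and 0 passed in edgeR. Ccl3, an attractant made by microglia, stood at 0.80 ± 0.52 in PA against control and Ccl9 at 0.86 ± 0.43 in PA + PS2 against PA (edgeR adjusted p = 1 and 0.98). Cxcl16 stood at 0.48 ± 0.34 in PA + PS2 against PA and Cxcl14 at -0.29 ± 0.24 in PA + PS2 against control (edgeR adjusted p = 1 for both). Of 22 interferon response genes 10 were tested, with medians of -0.03 in both comparisons with control, and 0 passed in edgeR. Irf7 stood at 0.67 ± 0.41 and Rtp4 at 0.71 ± 0.63 in PA + PS2 against PA, and Ifi27 at 0.44 ± 0.35 in PA against control (edgeR adjusted p = 1 for all 3). Of 20 chemokine receptor genes 5 were tested and 0 passed in edgeR. Cx3cr1, the fractalkine receptor of microglia, stood at -1.96 ± 0.60 in PA + PS2 against control (edgeR adjusted p = 0.33). It was -2.82 without PA + PS2 repeat 1, -3.03 without repeat 1 of every group and -1.24 without repeat 2 of every group. Ackr3, a scavenging receptor of Cxcl12, stood at 0.58 ± 0.23 (edgeR adjusted p = 0.69). Cxcr4, its signalling receptor, stood at 0.28 ± 0.16 and Ackr1 at 0.10 ± 0.10 (edgeR adjusted p = 1 for both). Exons of Ackr1 share 361 bases with Cadm3 on the same strand, which had 545 CPM in control. Reads from the shared stretch cannot be assigned to either gene.

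In bulk RNA, fewer cells of a type and less RNA per cell cannot be told apart. Markers of fibroblasts, pericytes and meninges lay lower in PA + PS2, as Nfkb2, Csf1, Il1r1 and Tnfrsf12a did. All 12 tested markers stood below 0 against control, with a median of -1.68, and their sum was 143 to 209 CPM in control, 98.2 to 173 CPM in PA and 15.1 to 60.8 CPM in PA + PS2. Among the 12, Pdgfra and Cspg4 are also in the oligodendrocyte list, and Pdgfra is among the 5 that passed with the repeat block. In edgeR 0 of the 12 passed (10 at an unadjusted p under 0.05), against 5 with the repeat block and 6 with DESeq2, where all tested genes gave 5.63%, 1.17% and 1.48%. The part of these cells in the lower values was not tested.

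Markers of microglia and macrophages summed to 21.9 to 25.7 CPM in control, 19.9 to 22.5 CPM in PA and 21.2 to 25.9 CPM in PA + PS2, beside the values of Ccl5, Ccl3 and Tnfaip3. These sums hold markers that stood in opposite directions: in PA + PS2 against control 8 of the 15 tested lay above 0 and 7 below. There 4 had an unadjusted p under 0.05, 0 passed in edgeR, 1 passed with the repeat block and 1 with DESeq2. All tested genes gave 5.63%, 0.0446%, 1.17% and 1.48%. The complement genes C1qa, C1qb and C1qc stood at -0.94 ± 0.57, -1.32 ± 0.41 and -1.27 ± 0.50 (edgeR adjusted p = 1, 0.37 and 0.66), as Cx3cr1 also stood lower. Siglech had 0 reads in every library, and P2ry12, Tmem119, Itgam and Ly86 did not pass the count filter. On the higher side, Lyz2, the lysozyme of macrophages, had 1.52, 0.522 and 0.737 CPM in control repeats, against 3.70, 4.63 and 5.20 CPM in those of PA + PS2 (log2 fold change 2.27 ± 0.39, edgeR adjusted p = 0.061; 0.015 with the repeat block). In the T and NK cell list, Cd3g and Nkg7 had 0 reads in every library, and Cd3d and Cd3e had at most 2. Astrocyte markers summed to 283 to 420 CPM in control, 356 to 397 CPM in PA and 291 to 344 CPM in PA + PS2, with Gjb6 at 0 reads throughout. That sum is mostly Slc1a2 and Glul, at -0.01 ± 0.12 and 0.06 ± 0.14 in PA + PS2 against PA. In the same comparison 8 of the 10 tested astrocyte markers lay below 0, with a median of -0.77, such as Aldh1l1 at -1.16 ± 0.33, Mlc1 at -1.08 ± 0.35 and Gja1 at -0.98 ± 0.26 (edgeR adjusted p = 0.37, 0.52 and 0.35). There 5 had an unadjusted p under 0.05, 0 passed in edgeR and 2 passed in DESeq2, where all tested genes gave 5.61%, 0% and 0.866%. Against control, 3 of the 10 lay above 0 and 7 below in PA + PS2, with a median of -0.16. In PA against control 8 lay above 0 and 2 below, with a median of 0.21. Gfap stood higher than control in both, at 1.76 ± 0.69 in PA + PS2 (edgeR adjusted p = 0.65) and 1.55 ± 0.69 in PA. Endothelial markers (4 of 10 tested) summed to 6.86 to 10.1, 5.64 to 8.5 and 2.62 to 5.47 CPM in control, PA and PA + PS2, with Ly6c1 at 0 reads. The tested markers differed in PA + PS2 against control. Kdr stood at -1.58 ± 0.37 and Flt1 at -1.25 ± 0.45, but Esam at -0.14 ± 0.43 and Pecam1 at 0.48 ± 0.55. The oligodendrocyte list summed to 71.1 to 95.9, 80.9 to 88.7 and 62.8 to 87.5 CPM in control, PA and PA + PS2. The part of these cells in the values of the members was not tested.

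**Figure D5:**
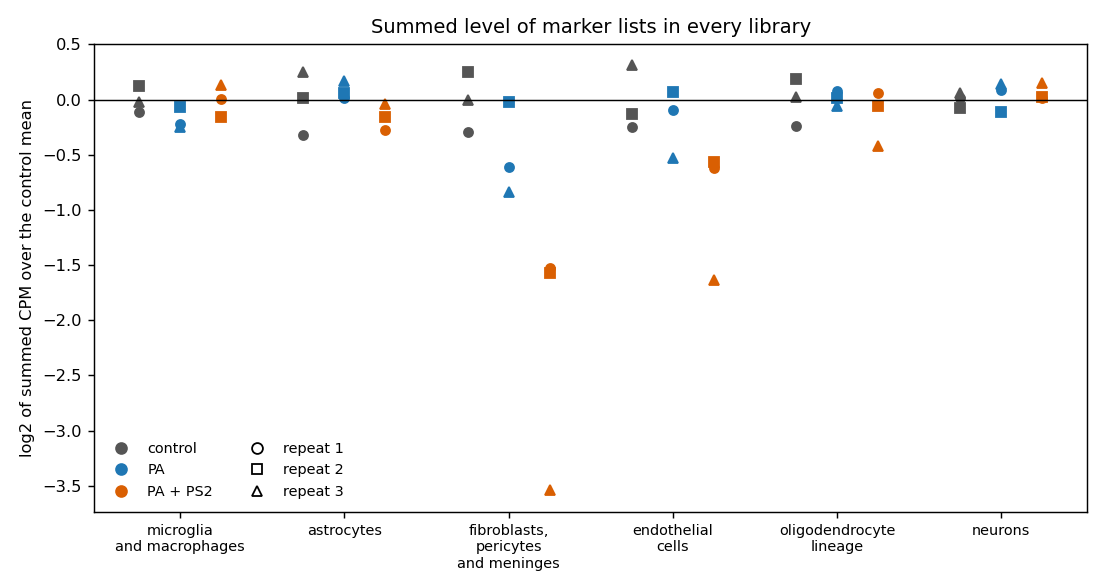
Log2 of the summed CPM of each marker list over its control mean (vertical axis) in every library, coloured by group with the shape giving the repeat. The fibroblast, pericyte and meninges list lies lower in the 3 PA + PS2 libraries (15.1 to 60.8 CPM) than in the controls (143 to 209 CPM), while the neuron list stays within 7184 and 8630 CPM.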

How the data were processed

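The authors deposited whole-number read counts for each Ensembl gene, 1 table per library. The submitters' processing notes name build mm10, HTSeq 2.0.2, STAR 2.7.5, DESeq2 1.14.1 and cutadapt 4.2, with no roles given. Annotation release and strand setting are not given in the sources used here. Names, coordinates and exon lengths came from GENCODE M21 (mm10), which matched 54165 of 54232 identifiers. Counts were kept by filterByExpr (minimum count 10, minimum total 15), leaving 15712 genes and 99.9% of the counts. Library sizes were scaled with TMM, and the counts were fitted over all 9 libraries with the edgeR 4.0.16 quasi-likelihood F test in R 4.3.3, 2-sided, with 6 residual degrees of freedom. The p-values were adjusted over all tested genes by the method of Benjamini and Hochberg, and an adjusted p under 0.05 passed. The standard error of a fold change is its size over the square root of F.

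The groups share repeat numbers 1 to 3, whose meaning the labels do not give. Correlations of the deviations of same-numbered libraries were 0.42, 0.37 and 0.28 for PA and control and 0.18, 0.22 and 0.13 for PA + PS2 and control. All were over 0.1, so for these comparisons a fit that blocks on the repeat is given where it changes a call. For PA + PS2 and PA they were 0.015, 0.29 and 0.30, which does not pair every repeat.

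The 9 members, the gene lists and the rules were chosen with earlier results of these data known. Named genes were all members, up to 4 further tested genes of each pathway list with the smallest unadjusted p over the comparisons, and up to 3 genes most similar to a member; 1 gene of the interferon list that this rule names is not reported here, and genes named from marker lists were chosen after their values were seen. Alternatives were DESeq2 1.42.0, its size factors in edgeR, no count filter, the block, fits of 6 libraries, and leaving out libraries or repeats.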

Additional observations from a re-analysis of the deposited data

How the results depend on the processing

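The count of genes passing in PA + PS2 against control was 7, and it was 17 with DESeq2 size factors in edgeR, 28 with only the 6 libraries of both groups, 184 with the replicate block, 232 with DESeq2 and 365 without the count filter. With a repeat or library left out it ran from 0 to 175, with 0 without repeat 2 or repeat 3 of every group, control repeat 2, control repeat 3 or PA + PS2 repeat 1, 1 without PA + PS2 repeat 3, 2 without PA + PS2 repeat 2, 18 without PA repeat 1, 125 without repeat 1 of every group and 175 without control repeat 1. In PA + PS2 against PA the count was 0, against 57 with the replicate block, 136 with DESeq2 and 330 without the filter, and 0 to 37 with a repeat or library left out (37 without control repeat 1, 3 without repeat 1 of every group, 2 without PA + PS2 repeat 2). In PA against control it was 0 except for 23 without the filter. The cause of these differences was not tested. Among the members, 1 (Nfkb2, PA + PS2 against control) passed in 2 of 17 alternatives, DESeq2 and no filter. Its adjusted p ran from 0.019 (DESeq2) to 1 (without repeat 3 of every group). In the other comparisons 0 members passed under any of the 17. Of 407 alternative values of the members, 384 moved by less than 1 SD of the replicates. Of 521 for the pathway genes, 508 kept direction and call. Csf1 passed in 7 of 17 alternatives in PA + PS2 against control, and Cx3cr1 in the same comparison and Vcam1 in PA + PS2 against PA passed without the filter. The sign turned for Hmgb1 in PA + PS2 against control (from -0.06 to 0.11 without repeat 2 of every group, 0.20 without control repeat 2 and 0.0084 without PA + PS2 repeat 1; lowest -0.20, without control repeat 3) and for Rel (from -0.23 to 0.053 without repeat 2 of every group; lowest -0.46, without PA + PS2 repeat 3). The replicate block changed no other call of a member or named pathway gene than that of Csf1. Ccl5 and Ccl2 rest on at most 20 and 8 reads per library, so depth limits what they can show.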
